A study of Mus musculus with 48 samples.

Results

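The genes described here are 8 genes that mark monocytes and other phagocytes: Cd14, Fcgr1, Fcgr4, Lyz2, Ctss, Cd68, F13a1 and Cybb. They were chosen by name, as every probe of the array annotated to one of these symbols, which gave 8 of the 34844 gene names and 10 of the 55681 probes of a one-colour Agilent mouse array (2 probes each for Cd68 and F13a1). RNA was measured in blood and in the medial prefrontal cortex (mPFC) of the same 24 female C57BL/6J mice, all 17 weeks old, in 4 groups of 6. Control mice were sham-operated and not stressed, CUMS mice were sham-operated and exposed to chronic ultra-mild stress, OVX mice were bilaterally ovariectomized and not stressed, and OVX+CUMS mice underwent both. CUMS lasted 6 weeks and began 2 weeks after surgery. The blood sample was the heparinized cell pellet of vena cava blood, so all blood cells contributed to it, and the mPFC sample was dissected tissue.

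Monocytes are circulating phagocytes that engulf particles and mature into macrophages in tissues. They sense bacterial lipids and antibody-coated targets through surface receptors, degrade what they take up with lysosomal enzymes, and kill microbes with an oxidase that makes superoxide. In the brain, microglia and the macrophages of its borders express many of the same genes. Neutrophils, the other abundant phagocytes of blood, share several of them too, so that none of the 8 is private to monocytes in a bulk sample. A lower value in a bulk sample can come from fewer cells of a type or from less RNA per cell, and these cannot be told apart here.

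The array carries a 60-base probe for Lyz2, lysozyme 2, which lies on chr10:116719175-116719234 of mm9. It is shown because the neighbouring gene Lyz1 is nearly identical and has a probe of its own, and cross-hybridization was not tested.
Lyz2 probe: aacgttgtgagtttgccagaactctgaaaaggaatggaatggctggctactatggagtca

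Promoter sequences were taken from RefSeq on the GRCm38.p6 build, as the 250 bases before the start of transcription, and 7 of the 8 genes were matched, F13a1 with 2 starts. The letters GAGGAA, or TTCCTC on the other strand, are the core letters bound by the myeloid factor PU.1. They occurred in 5 of the 8 windows of these genes (5 of the 7 genes), and in 7639 of all 32851 windows (23.3%). The windows of Ctss and Fcgr4 are shown with the match in capitals, and that of Cybb as one without it. Ctss has its match 164 bases before the start and Fcgr4 22 bases before it. The remaining matches lay 55 bases before the start of Fcgr1, 225 before that of Cd68 and 66 before 1 of the 2 starts of F13a1. A match is a run of letters and no evidence of binding.
Ctss, chr3:95526536-95526785, plus strand: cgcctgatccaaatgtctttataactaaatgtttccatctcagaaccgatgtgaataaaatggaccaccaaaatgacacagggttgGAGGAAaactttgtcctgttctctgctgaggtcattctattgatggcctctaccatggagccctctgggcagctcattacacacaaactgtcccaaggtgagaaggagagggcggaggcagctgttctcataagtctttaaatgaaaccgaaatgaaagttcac
Fcgr4, chr1:171018676-171018925, plus strand: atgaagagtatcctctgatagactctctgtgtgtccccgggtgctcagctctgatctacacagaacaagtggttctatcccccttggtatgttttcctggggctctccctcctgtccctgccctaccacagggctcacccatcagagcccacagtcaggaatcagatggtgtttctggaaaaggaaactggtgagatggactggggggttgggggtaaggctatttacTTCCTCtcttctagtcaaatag
Cybb, chrX:9469325-9469574, minus strand: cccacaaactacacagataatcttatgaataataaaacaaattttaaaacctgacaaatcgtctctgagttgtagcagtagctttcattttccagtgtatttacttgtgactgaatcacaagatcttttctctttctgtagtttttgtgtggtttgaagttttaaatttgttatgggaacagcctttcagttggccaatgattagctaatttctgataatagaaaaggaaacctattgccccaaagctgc

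Levels are given as the log2 signal minus the 75th percentile of the array, so that 0 is the level of a fairly bright probe and a difference of 1 is a doubling. Levels of different probes cannot be compared with each other. A probe was taken as detected in a tissue when it was above background on all 24 arrays and its signal exceeded 50 on at least 2, which held for 20768 probes in blood and 28360 in mPFC. In blood 6 of the 10 member probes passed, 1 each for Fcgr4, Lyz2, Ctss, Cd68, F13a1 and Cybb. In mPFC 7 passed, 1 each for Cd14, Fcgr1, Lyz2, Ctss and F13a1 and both of Cd68. Across arrays the 75th percentile of the signal ran from 54.9 to 192 in blood, against 572 to 689 in mPFC, so dim blood probes were measured less precisely. No member spot was saturated.

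OVX+CUMS replicate 5 stood apart in blood. The mean level of 11 detected neutrophil markers (of 12 listed, among them the granule genes Ngp, Camp and Ltf) was 6.11 in that mouse, against 2.37 to 3.56 in the other 23. It was also the lowest of its group for the B cell (2.77), T cell (2.91) and NK cell (1.75) markers. In mPFC the 5 detected neutrophil markers reached 1.10 in that mouse, with -0.12 the highest among the others, while Ngp, Mmp8 and Cxcr2 were above background on no mPFC array. The part of neutrophil RNA in the levels below was not tested, and the counts of member calls are therefore given with and without this mouse. The arrays of each tissue lay on 3 slides of 8. The first held all control and 2 CUMS mice, the second 4 CUMS and 4 OVX mice, and the third 2 OVX and all OVX+CUMS mice, so that control and OVX+CUMS mice shared no slide.

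Among the surface receptors, Cd14, the co-receptor for bacterial lipopolysaccharide, was dim in blood. Its lowest, median and highest levels were -2.80, -2.72 and -1.92 in control, -4.19, -2.08 and -1.67 in CUMS, -2.83, -2.34 and -1.49 in OVX, and -2.73, -2.29 and 0.96 in OVX+CUMS mice. All 4 ranges overlapped, and the highest OVX+CUMS value without replicate 5 was -2.04. The probe was above background on 23 of 24 blood arrays, the exception being CUMS replicate 2, the dimmest array. Its signal exceeded 50 on only 1 blood array, so no test of it is reported in blood beyond the exact permutation test below.

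Fcgr1 encodes the high-affinity receptor for IgG, a surface marker of monocytes and macrophages. Its blood levels ran from -2.36 over -1.63 to -0.93 in control, from -3.90 over -2.18 to -1.08 in CUMS, from -2.16 over -1.64 to -1.42 in OVX, and from -2.86 over -2.22 to 0.71 in OVX+CUMS mice. It too was above background on all arrays but that of CUMS replicate 2, and every pair of groups overlapped. When probes missing on 1 array were kept, the OVX effect of Fcgr1 was 0.21 ± 0.33 (SE; limma, adjusted p = 0.598) and the CUMS effect was -0.31 ± 0.33 (adjusted p = 0.437). Without CUMS replicate 2 and OVX+CUMS replicate 5 these were -0.21 (adjusted p = 0.404) and -0.38 (adjusted p = 0.124), so the sign of the first turned.

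Fcgr4, a receptor for IgG carried by non-classical monocytes and neutrophils, was detected on all blood arrays. Its lowest, median and highest levels were 0.60, 0.67 and 1.28 in control, 0.07, 0.70 and 1.24 in CUMS, 0.05, 0.97 and 1.39 in OVX, and 0.22, 0.47 and 3.10 in OVX+CUMS mice. The groups overlapped, and the order of their means turned on 1 mouse. OVX+CUMS had the highest mean with replicate 5 and the lowest without it.

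**Figure D1:**
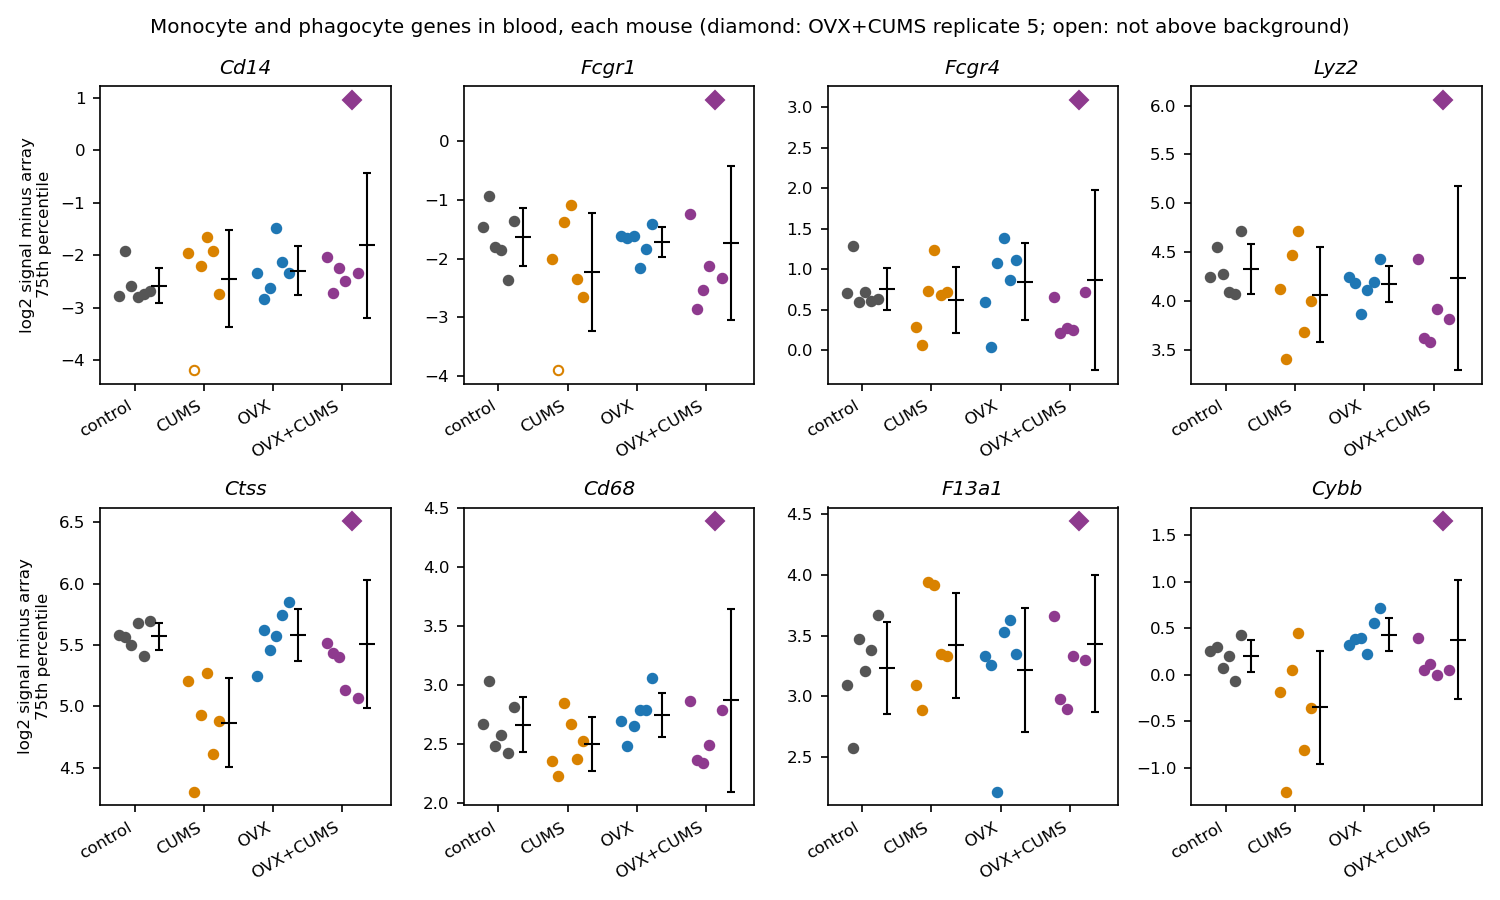
Levels of the 8 genes in blood for each mouse (y axis: log2 signal minus the 75th percentile of the array; x axis: group of 6 mice; black bars: mean ± SD; diamond: OVX+CUMS replicate 5; open symbols: not above background). The diamond is the highest value of all 24 mice in every panel, and for Ctss the 6 CUMS mice lie below the 6 control mice.

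Of the lysosomal and secreted proteins, lysozyme 2, which cleaves bacterial cell walls, was detected on all blood arrays. Lyz2 ran from 4.08 over 4.26 to 4.72 in control, from 3.42 over 4.06 to 4.72 in CUMS, from 3.87 over 4.20 to 4.43 in OVX, and from 3.58 over 3.87 to 6.06 in OVX+CUMS mice. The highest OVX+CUMS value without replicate 5 was 4.43, inside the control range.

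Ctss encodes cathepsin S, a cysteine protease that trims the invariant chain of MHC class II. Its lowest, median and highest blood levels were 5.41, 5.57 and 5.69 in control, 4.31, 4.90 and 5.27 in CUMS, 5.25, 5.60 and 5.85 in OVX, and 5.07, 5.42 and 6.51 in OVX+CUMS mice. All 6 CUMS mice lay below all 6 control mice. Ctss was the only one of the 6 detected members for which these ranges did not overlap, and 4.04% of all detected probes did not overlap between these groups. The mean of the CUMS group was 4.87 ± 0.36 (SD, n = 6), lower than its neighbour in the order of means, OVX+CUMS at 5.51 ± 0.52, by more than the larger of the SDs.

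Cd68, a glycoprotein of the lysosomal membrane, and F13a1, the A subunit of clotting factor XIII, which platelets carry as well, overlapped between all groups in blood. Cd68 ran from 2.42 over 2.62 to 3.04 in control, from 2.23 over 2.45 to 2.85 in CUMS, from 2.48 over 2.74 to 3.06 in OVX, and from 2.34 over 2.64 to 4.39 in OVX+CUMS mice. F13a1 ran from 2.57 over 3.29 to 3.67 in control, from 2.88 over 3.34 to 3.94 in CUMS, from 2.21 over 3.34 to 3.63 in OVX, and from 2.89 over 3.31 to 4.45 in OVX+CUMS mice. For the detected probe of both genes, all neighbours in the order of group means were within the larger SD.

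Cybb encodes gp91phox, the catalytic subunit of the phagocyte NADPH oxidase. Its lowest, median and highest blood levels were -0.07, 0.23 and 0.43 in control, -1.26, -0.27 and 0.45 in CUMS, 0.23, 0.39 and 0.72 in OVX, and -0.00, 0.08 and 1.65 in OVX+CUMS mice. The ranges of the CUMS and OVX mice overlapped only through the highest CUMS mouse.

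The effect of OVX was the mean difference of the ovariectomized from the sham-operated mice over both levels of stress, and it asked whether loss of the ovaries shifted these genes. In blood 2 of the 6 detected members rose and none fell, while 55.1% of all 20768 detected probes changed (5696 rose and 5751 fell). Cybb rose by 0.48 ± 0.18 on the log2 scale (SE, 24 mice; limma, adjusted p = 0.0255), and Ctss rose by 0.33 ± 0.13 (limma, adjusted p = 0.0421). The effects of the other members were 0.17 for Fcgr4, 0.01 for Lyz2, 0.22 for Cd68 and 0.00 for F13a1, none past the threshold. The median effect of the 6 members was 0.20, against 0.04 for all detected probes.

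Without OVX+CUMS replicate 5, 1 of the 6 members rose, when 55.6% of all 20740 detected probes changed (5812 rose and 5718 fell). The OVX effect of Cybb was 0.35 (limma, adjusted p = 0.0352) and that of Ctss 0.23 (adjusted p = 0.0610), and the median of the members fell to 0.01. With slide as a block 0 of 20768 probes passed in this comparison (limma; 1317 at an unadjusted p under 0.05, of which 0 were members). The effect was then 0.00 for Ctss, -0.09 for Cybb, -0.16 for Cd68, -0.41 for Fcgr4, -0.43 for Lyz2 and -0.70 for F13a1. The median of the 6 members was -0.29 with that block, against -0.01 for all detected probes. No slide held sham-operated and OVX mice at the same level of stress, so within a slide surgery cannot be told apart from stress. At 1 level of stress the surgery groups lay on different slides, so surgery and slide cannot be told apart there. The p-values measure the spread between mice.

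The effect of CUMS was the mean difference of stressed from unstressed mice over both kinds of surgery. In blood 1 of the 6 detected members fell and none rose, while 48.5% of all 20768 detected probes changed (3963 rose and 6109 fell). Ctss fell by 0.39 ± 0.13 on the log2 scale (SE, 24 mice; limma, adjusted p = 0.0217), or to 0.764 of its level. Cybb had an effect of -0.30 ± 0.18 (adjusted p = 0.153). Fcgr4 had -0.06, Lyz2 -0.10, Cd68 -0.02 and F13a1 0.20, none past the threshold.

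Without OVX+CUMS replicate 5, 2 of the 6 members fell, when 50.8% of all 20740 detected probes changed (3984 rose and 6551 fell). The effect of Ctss was -0.49 ± 0.10 (limma, adjusted p = 0.00192) and that of Cybb -0.43 ± 0.14 (adjusted p = 0.0156). The median effect of the 6 members moved from -0.08 to -0.28, while that of all detected probes moved from -0.03 to -0.05. The fall of Ctss passed the threshold in all 24 fits that left out 1 mouse each.

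The difference in Ctss was also taken within slides. With slide as a block, when 49.7% of all detected probes changed, it was -0.55 ± 0.19 (limma, adjusted p = 0.0241), and Cybb had -0.59 ± 0.24 (adjusted p = 0.0492). Within the slide that held 4 CUMS and 4 OVX mice the difference of CUMS from OVX mice, which differ in surgery as well as in stress, was -0.55 for Ctss (adjusted p = 0.0198). There 10846 of all 20768 detected probes passed. Within the slide of control and 2 CUMS mice the difference was -0.81 (adjusted p = 0.160), and 0 of 20768 probes passed. The 2 CUMS mice there were replicates 1 (level 5.21) and 2 (4.31), and CUMS replicate 2 was the dimmest blood array. Among sham-operated mice, the fits with slide as a block rest on these 2 CUMS mice. No such fit left out CUMS replicate 2. Within the slide of OVX and OVX+CUMS mice the Ctss difference was -0.29, and -0.49 without OVX+CUMS replicate 5 (adjusted p = 0.0593). In each of these fits 0 of 20768 probes passed. With slide as a block and without OVX+CUMS replicate 5, 5 of the 6 members fell (F13a1 did not). Of all 20740 detected probes 55.2% then changed (4847 rose and 6601 fell).

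**Figure D2:**
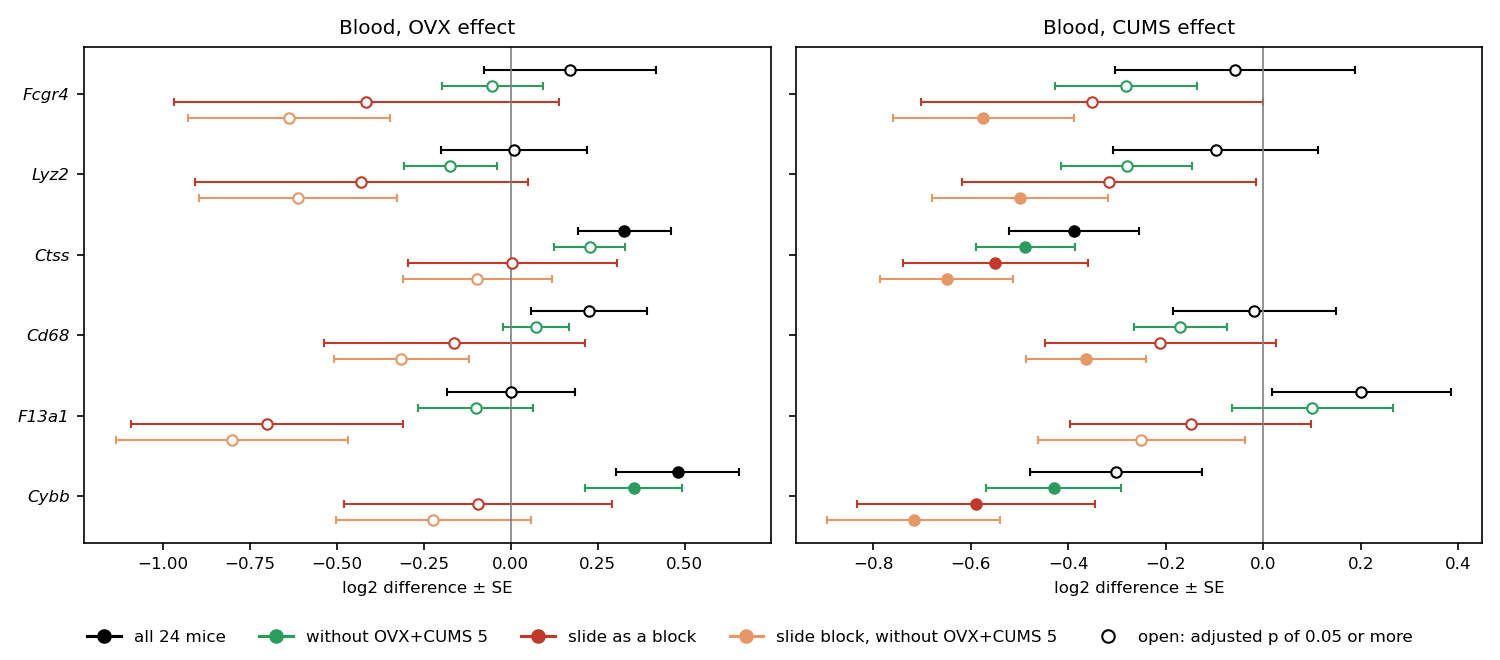
OVX effect (left) and CUMS effect (right) on the 6 detected members in blood (x axis: log2 difference ± SE; y axis: gene), with all 24 mice, without OVX+CUMS replicate 5, with slide as a block, and with both. The CUMS effect of Ctss is below 0 with an adjusted p under 0.05 (filled) in all 4 fits, from -0.39 with all mice to -0.65 with slide as a block and without that mouse, while its OVX effect goes from 0.33 to 0.00 with that block.

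Markers of other cell types moved with the same comparisons. With CUMS 48.5% of all 20768 detected probes changed (3963 rose and 6109 fell). Then 5 of 6 erythroid markers rose and 5 of 6 B cell, 4 of 6 T cell and 2 of 5 NK cell markers fell, while 1 of 11 neutrophil markers rose. Without OVX+CUMS replicate 5 the median effect of the neutrophil markers moved from 0.08 to -0.16, with 1 that rose and 2 that fell, 4 of 6 erythroid markers rose, and the B, T and NK cell counts were the same. With OVX 55.1% of all 20768 detected probes changed (5696 rose and 5751 fell). Then 4 of 6 B cell and 1 of 11 neutrophil markers rose, and 6 of 6 erythroid, 2 of 6 platelet, 2 of 5 NK cell and 1 of 6 T cell markers fell. Without that mouse 6 of 6 B cell markers rose and the other counts were the same. With slide as a block 49.7% of all 20768 detected probes changed with CUMS (4542 rose and 5775 fell). Then 6 of 6 erythroid markers rose, and 5 of 6 B cell and 2 of 6 T cell markers fell. None of the NK cell or neutrophil markers passed for CUMS with that block. No marker passed for OVX with slide as a block, as for all probes. The mean erythroid level was 8.58 to 9.74 in control and 8.02 to 9.15 in OVX mice. The part of a changed cell mixture in the member effects was not tested.

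The interaction asked whether CUMS acted differently in ovariectomized mice. None of the 6 members passed (limma; 1 at an unadjusted p under 0.05), and 1.42% of all detected probes did. Ctss had the largest value of the 6, 0.63 ± 0.27 (adjusted p = 0.213), which was 0.43 without replicate 5 (adjusted p = 0.269). Without that mouse 0 of the 6 members passed (limma; 1 at an unadjusted p under 0.05). Of all 20740 detected probes 0 passed then (3658 at an unadjusted p under 0.05). Without both that mouse and CUMS replicate 2, 2056 of 22406 detected probes passed, and 0 of the 7 member probes among them. The number of calls thus changed in both directions with the mice left out. With slide as a block 0 of 20768 probes passed (limma; 208 at an unadjusted p under 0.05, of which 0 were members).

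OVX+CUMS mice were also compared directly with control mice. Again 0 of the 6 members passed (limma; 0 at an unadjusted p under 0.05), and 6.26% of all detected probes did. The exact two-sided permutation test of 6 against 6 mice, run on each of the 8 genes, gave p from 0.136 for Cd14 (difference 0.77) to 0.965 for Fcgr4 (0.11), where 0.00216 is the smallest p it allows. Without replicate 5 the difference was -0.45 for Lyz2 (exact permutation p = 0.0411) and -0.26 for Ctss (exact permutation p = 0.0173). The other 6 genes had p from 0.0736 for Fcgr4 to 1.00 for F13a1 in this exact permutation test. The smallest p possible was then 0.00433, and these p-values are not adjusted for the 8 genes. In limma, without that mouse, 0 of the 6 members passed (1 at an unadjusted p under 0.05), and 5.21% of all detected probes did. When slide was a block and that mouse was left out, 0 of the 6 members passed, against 0.00482% (1 of all detected probes), and all 6 had an unadjusted p under 0.05 (limma), as had 1955 of all 20740 probes. Since these groups shared no slide, that fit links them only through the CUMS and OVX mice.

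In mPFC the same genes were at other levels relative to the array. In the same mouse the level in blood minus that in mPFC was 7.33 ± 0.43 (SD, 24 mice) for Lyz2 and 5.75 ± 0.61 for F13a1, and all 24 mice were higher in blood. For Fcgr4 it was 5.29 ± 0.55 over the 22 mice in which it was above background in both tissues. The values for Lyz2 and F13a1 were 7.27 and 5.69 without OVX+CUMS replicate 5. Cybb was above background on no mPFC array, and blood was at least 52.3-fold higher. These values depend on the scaling. When arrays were shifted by the E1A spike-in probes they were 5.41 for Lyz2, 3.84 for F13a1 and at least 13.9-fold for Cybb. Ctss was 1.21 and Cd68 1.71 higher in blood, but both signs turned, to -0.70 and -0.20, with that shift. Cd14 and Fcgr1 were higher in blood in 6 of 24 mice each, with mean differences of -0.52 and -0.51, and -2.43 and -2.42 with that shift.

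**Figure D3:**
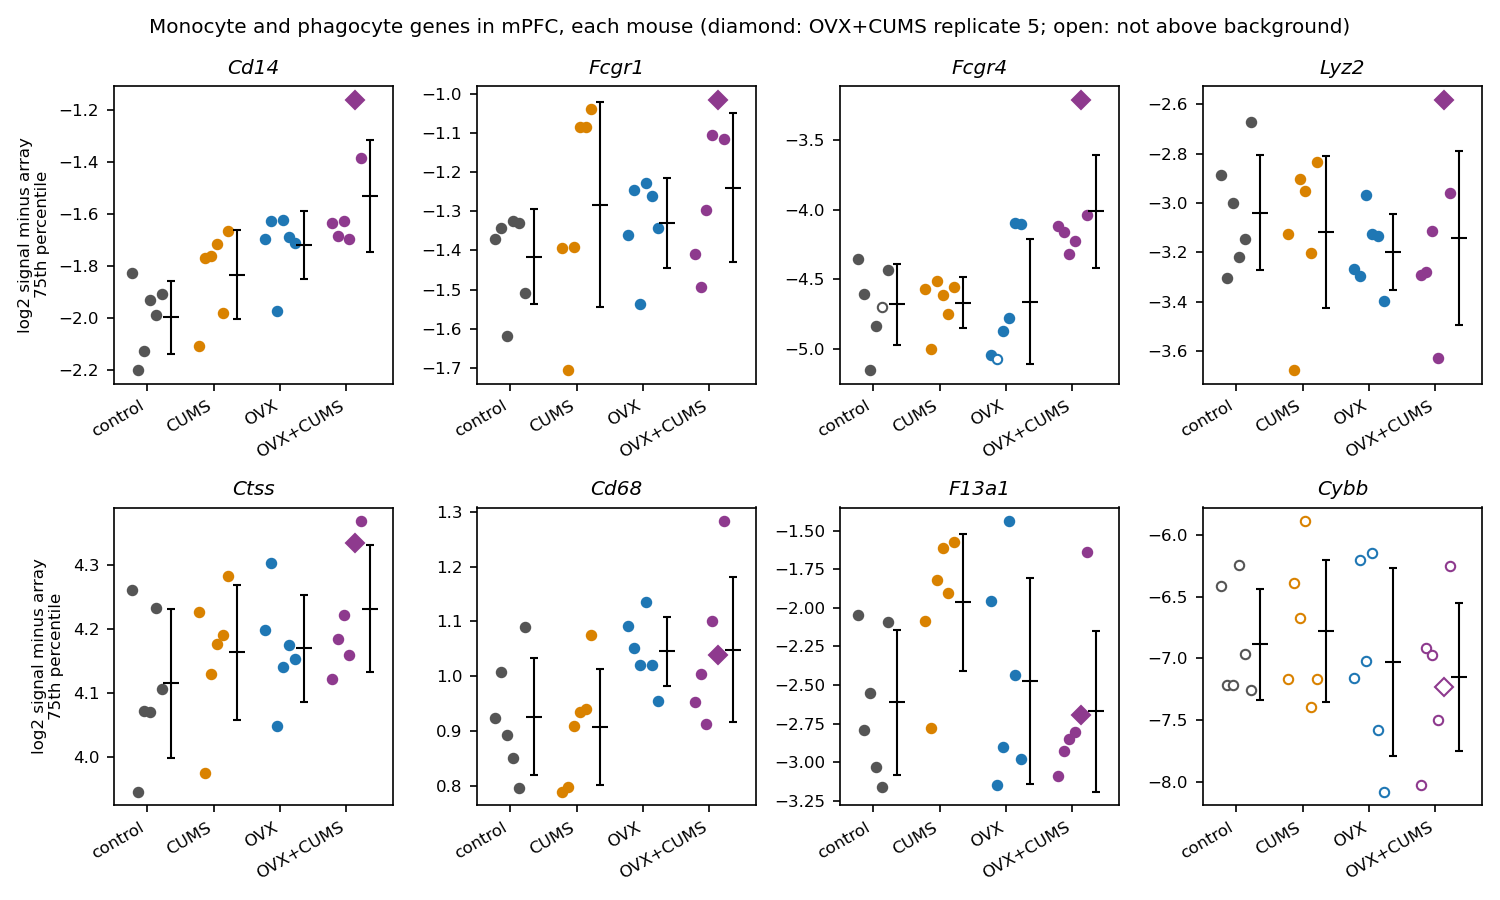
Levels of the 8 genes in mPFC for each mouse (y axis: log2 signal minus the 75th percentile of the array; x axis: group of 6 mice; black bars: mean ± SD; diamond: OVX+CUMS replicate 5; open symbols: not above background). All 6 OVX+CUMS mice lie above all 6 control mice for Cd14 and Fcgr4, and Cybb is not above background on any array.

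Cd14 in mPFC ran from -2.20 over -1.96 to -1.83 in control, from -2.11 over -1.77 to -1.67 in CUMS, from -1.97 over -1.69 to -1.62 in OVX, and from -1.70 over -1.63 to -1.16 in OVX+CUMS mice. The means rose in the order control, CUMS, OVX, OVX+CUMS, with each neighbour within the larger SD. Control and OVX+CUMS did not overlap, as for 17.2% of all detected probes. Fcgr4 was above background on 22 of 24 mPFC arrays and did not pass the detection rule there. With no detection filter it had 0.34 for OVX (limma, adjusted p = 0.118), 0.33 for CUMS (adjusted p = 0.286) and 0.64 for the interaction (adjusted p = 0.263). Fcgr4 ran from -4.32 to -3.21 in OVX+CUMS mice, above the control range of -5.15 to -4.35 and the CUMS range of -5.00 to -4.52. Without replicate 5 its highest OVX+CUMS value was -4.04, and neither pair overlapped. Of all detected probes, 2.54% did not overlap between the OVX+CUMS and CUMS mice, and Fcgr4 is not one of the detected probes. All OVX+CUMS mice lay on the third slide, with 2 OVX mice. The mean Fcgr4 level of OVX mice was -4.95 for the 4 on the second slide and -4.10 for the 2 on the third. The part of the slide in these ranges was not tested.

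With OVX 2 of the 7 detected member probes in mPFC rose, while 30.9% of all 28360 detected probes changed (5423 rose and 3328 fell). Cd14 rose by 0.29 ± 0.07 on the log2 scale (SE, 24 mice; limma, adjusted p = 0.00231), and by 0.25 without replicate 5 (adjusted p = 0.00332), when again 2 of 7 rose and 28.9% of all detected probes changed. The brighter Cd68 probe rose by 0.13 ± 0.04 (adjusted p = 0.0275), but the second Cd68 probe had -0.04 ± 0.06 (adjusted p = 0.637), so the probes of this gene disagreed. With slide as a block 0 of the 7 probes and 0 of all detected probes passed (limma; 0 members and 1881 probes at an unadjusted p under 0.05), and Cd14 had 0.17 ± 0.15.

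With CUMS 0 of the 7 member probes in mPFC passed (limma; 1 at an unadjusted p under 0.05), and 4.19% of all detected probes did. Without replicate 5 it was 0 of 7 (1 at an unadjusted p under 0.05) and 3.19% of all detected probes. The nearest was Cd14 at 0.18 ± 0.07 (adjusted p = 0.117). In the interaction 0 of 7 passed (limma; 0 at an unadjusted p under 0.05), and 4.49% of all detected probes did, and without replicate 5 it was 0 of 7 (0 at an unadjusted p under 0.05) and 3.18%. F13a1 had -0.84 ± 0.41 there (adjusted p = 0.219). The mean microglial marker level was 1.53 to 1.74 in control and 1.50 to 1.65 in OVX mice, and 1 of 7 microglial markers rose with OVX.

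The difference of an effect between the tissues was tested in the 4 members detected in both, over 17545 probes and with the mouse as a random block. For CUMS 1 of 4 differed, against 51.4% of all probes. The effect of CUMS on Ctss was lower in blood than in mPFC by -0.44 ± 0.14 on the log2 scale (limma, adjusted p = 0.00835), and by -0.53 without replicate 5 (adjusted p = 3.04e-04), when 1 of 4 members and 53.8% of all probes differed. With slide as a block 1 of 4 differed, against 37.9% of all probes, and the value for Ctss was -0.58 ± 0.20 (adjusted p = 0.0281). It kept its call in all 24 fits that left out a mouse and in the 10 other settings. For OVX 0 of 4 differed (limma; 0 at an unadjusted p under 0.05), against 39.3% of all probes, and without replicate 5 again 0 of 4 (0 at an unadjusted p under 0.05), against 39.1%.

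Between mice the members moved together in both tissues. In blood the mean Pearson r over the 15 pairs of 6 members, on deviations from the group means, was 0.76 with all mice (0.50 to 0.92) and 0.53 without OVX+CUMS replicate 5 (0.15 to 0.86). Over all detected probes it was 0.01. In mPFC, for 6 members with the brighter Cd68 probe, it was 0.45 (0.25 to 0.74), and 0.44 without that mouse (0.21 to 0.74). These are descriptions of arrays that share mice, slides and depth.

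**Figure D4:**
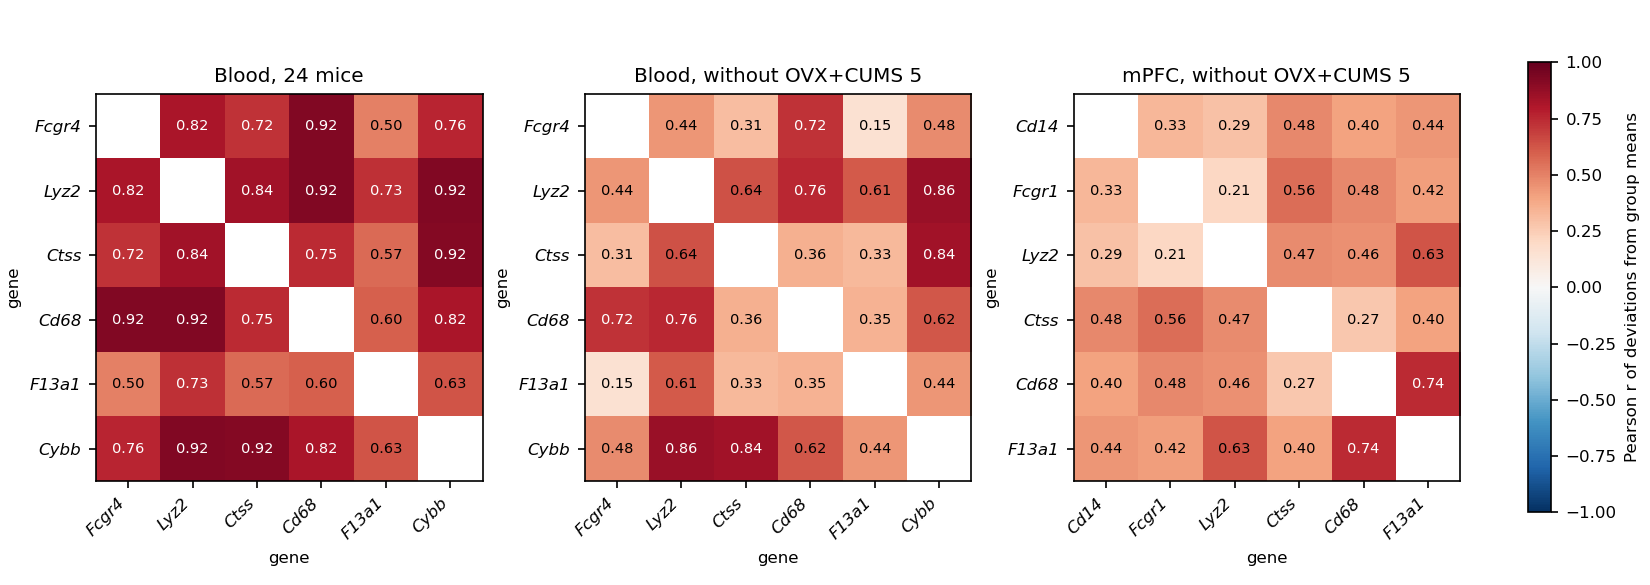
Pearson r of each pair of members over mice, on deviations from the group means (both axes: gene; colour: r from -1 to 1), in blood with 24 mice, in blood without OVX+CUMS replicate 5, and in mPFC without it. All pairs are above 0 in the 3 panels. In blood the mean is 0.76 with all mice and 0.53 without that mouse.

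Levels in blood and mPFC of the same mouse were set against each other for the 4 members detected in both tissues, as 4 relations with p-values unadjusted. Over 24 mice and on deviations from group means, r was 0.57 for Lyz2 (permutation p = 0.0292; Spearman's rho 0.31, p = 0.178), with a median r of 0.08 over all probes. Without OVX+CUMS replicate 5 it was 0.32 (permutation p = 0.237), so the relation rests on this mouse, and without the 2 mice farthest from the median, OVX+CUMS replicate 5 and CUMS replicate 4, it was 0.28 (permutation p = 0.319). For Ctss r was 0.27 (permutation p = 0.238; rho 0.22, p = 0.309), for Cd68 0.18 (permutation p = 0.499; rho 0.41, p = 0.0683) and for F13a1 0.31 (permutation p = 0.180; rho 0.32, p = 0.140). Without OVX+CUMS replicate 5 r was 0.14 for Ctss, 0.40 for Cd68 (permutation p = 0.0912; rho 0.48, p = 0.0372) and 0.37 for F13a1, and without the 2 farthest mice -0.20, 0.35 and 0.33.

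The genes most like the members in blood were ranked by Pearson r with the mean of the 6 standardized members over the 23 arrays without OVX+CUMS replicate 5. They were Mpeg1 (0.94, and 0.98 over 24 arrays), which encodes perforin-2 of phagocytes, Myo1f (0.93 and 0.96), a myosin of leukocytes, Ifitm6 (0.93 and 0.96), Mgst1 (0.93 and 0.97), a microsomal glutathione transferase, and Plbd1 (0.93 and 0.96). Of 16316 genes 1.09% exceeded 0.8. The likeness says nothing of shared control.

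Other genes of monocytes and phagocytes were taken from a list of 56, of which 53 were on the array and 47 were detected in blood. With OVX 17 of the 47 rose and 3 fell, where 55.1% of all 20768 detected probes changed (5696 rose and 5751 fell). The share called in either direction was thus no higher than among all probes. The median effect was 0.32, against 0.04 for all detected probes. Without OVX+CUMS replicate 5 the counts were 17 and 6 and the median 0.18. None passed with slide as a block, as for all probes, and the median was then -0.10. F10 (0.98), clotting factor X, rose most. Vcan (-0.81), a proteoglycan of classical monocytes, Ctsb (-0.45), cathepsin B, and Cd36 (-0.41), a scavenger receptor, fell. Of the 5 listed oxidase subunits that work with Cybb, 4 rose with a median of 0.33 over the 5, among them Ncf1 by 0.42 and Cyba by 0.35. Their median was -0.04 with slide as a block.

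With CUMS 3 of these 47 genes rose and 7 fell in blood, where 48.5% of all detected probes changed, with a median of -0.14 against -0.03 for all detected probes. Without replicate 5, when 50.8% of all 20740 detected probes changed (3984 rose and 6551 fell), 2 rose and 25 fell and the median was -0.28. With slide as a block 2 rose and 12 fell. The count of genes that fell therefore depended on this mouse. Cd36 (0.66), Ctsb (0.55) and Ace (0.33), angiotensin converting enzyme, rose. Ly6c1 (-0.46) and Spn (-0.40), the sialophorin of leukocytes, fell most. The median effect of the 5 oxidase subunits was -0.21 with all mice, when none passed (limma), and Ncf1 had -0.27 (adjusted p = 0.0580). Without replicate 5, 4 of the 5 fell, among them Ncf1 (-0.32).

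**Figure D5:**
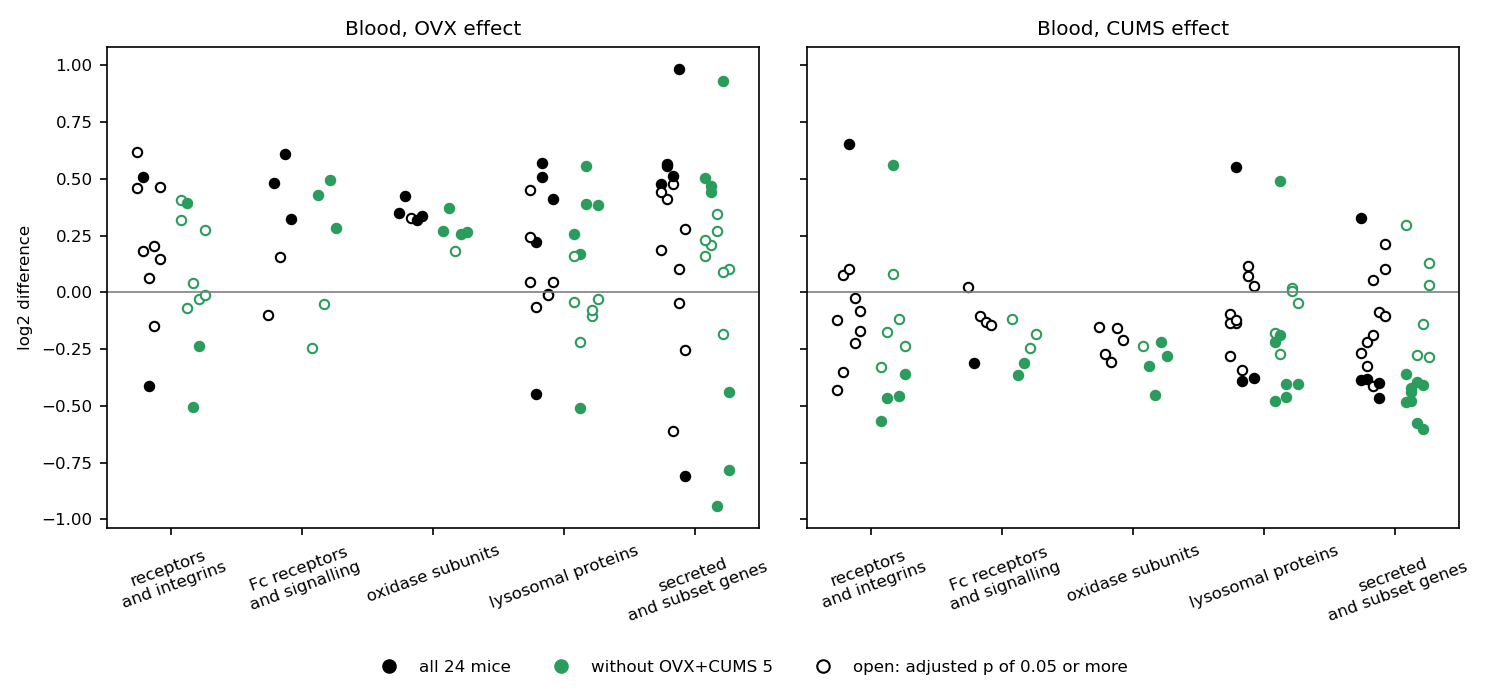
Effects of OVX (left) and CUMS (right) in blood on the 47 detected genes of the list (y axis: log2 difference; x axis: group of genes), with all 24 mice in black and without OVX+CUMS replicate 5 in green, filled where the adjusted p was under 0.05. With CUMS the number that fell goes from 7 to 25 when this mouse is left out.

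In mPFC 44 of the list were detected. With OVX 14 rose, of which Mpeg1 (0.34), Cx3cr1 (0.22), the fractalkine receptor of microglia, and Ace (0.21) rose most, and Vcan fell (-0.25), where 30.9% of all detected probes changed. When OVX+CUMS replicate 5 was left out, 11 rose and 1 fell. With CUMS Nr4a1 (0.51) and Klf4 (0.40), both transcription factors, and Ace (0.28) rose, where 4.19% of all detected probes changed, and the count was also 3 without that mouse. With slide as a block none passed for OVX or CUMS (limma).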

How the data were processed

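Intensities were made by the authors with Agilent Feature Extraction (10.7.3.1 in the file headers) as background-subtracted processed signals. The deposited log2 table had been shifted by the authors to the 75th percentile of each array. Here log2 processed signals were shifted to the same percentile. Control probes and spots marked as outliers (98 to 206 per array) were left out.

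Detected probes entered linear models in limma 3.58.1 (R 4.3.3) of surgery, CUMS and their interaction, with moderated spread. P-values are two-sided and were adjusted by Benjamini-Hochberg over all detected probes at 0.05. A share of probes that changed counts both directions. Main effects are means over both levels of the other factor. Single genes had exact permutation tests, and blood with mPFC of 1 mouse 1e+05 shuffles of mice within groups. The limma fit of the OVX and CUMS main effects, with no block, was tested on simulated data without a slide effect or an outlying mouse. Gene names are those of the array. Coordinates of probes are mm9 and those of promoters GRCm38.p6. The members, the lists and the rule for named genes (per effect, the 3 largest rises and the 3 largest falls past the threshold) were chosen with earlier results of these data known. Some listed genes enter the counts but are not reported here by name. Alternatives were other background corrections, scalings, filters, blocks and mice left out. The arrays' number, not counts, limits precision.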

Additional observations from a re-analysis of the deposited data

Results flagged for a closer look

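A single extreme value was looked for in 64 sets of 6 values, each for 1 gene in 1 group and 1 tissue, and 12 held one. Chance flags about 1 in 20 sets, but these sets share mice and the genes moved together. The flags are therefore not independent and their number is not set against chance. Genes below the detection rule were included, such as Cd14 in blood and Fcgr4 in mPFC. OVX+CUMS replicate 5 was the extreme mouse in 7 of the 12. In blood it was the highest for Cd14 (0.96), Fcgr4 (3.10), Lyz2 (6.06), Ctss (6.51), Cd68 (4.39) and Cybb (1.65), and in mPFC for Fcgr4 (-3.21). Its neutrophil marker level stood at 6.11 in blood, against 2.85 for the highest other mouse of its group, and their part in these values was not tested.

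Control replicate 2 was the highest of its group in blood for Cd14 (-1.92) and Fcgr4 (1.28). OVX replicate 3 was the lowest of its group for F13a1 in blood (2.21) and for Cd14 in mPFC (-1.97). OVX+CUMS replicate 6 was the highest of its group for F13a1 in mPFC (-1.64).

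The effect of CUMS on Ctss differed between the tissues by the test of the difference itself, at -0.44 on the log2 scale for blood minus mPFC.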

How the results depend on the processing

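Counts of member probes past the threshold changed as follows, and the cause was not tested. The number of all tested probes past it is given beside each. The blood OVX count was 2, beside 11447 of all 20768 probes. It was 3 with the E1A spike-in shift (12096 probes), and also 3 with that shift without OVX+CUMS replicate 5 (11455 of 20740). It was 1 with no detection filter (18309 of 55681 probes) and over probes detected on all 48 arrays (9965 probes). It was also 1 with no moderation of the spread (11320) and with the replicate block (10822). With slide as a block it was 0, with or without OVX+CUMS replicate 5, as for all probes. It was 0 without OVX+CUMS replicate 5 and CUMS replicate 2 as well (11177 of 22406). The blood CUMS count was 1, beside 10072 of all 20768 probes. It was 0 with no detection filter (9363 of 55681 probes). It was also 0 within slide 1, within slide 3 and within slide 3 without OVX+CUMS replicate 5, with 0 of 20768 probes each. It was 2 with the E1A spike-in shift (9579 probes) and with slide as a block (10317). Without OVX+CUMS replicate 5 and CUMS replicate 2 it was also 2 (10041 of 22406). When OVX+CUMS replicate 5 was left out it was 5 with slide as a block (11448 of 20740) or with the spike-in shift (9939). The mPFC OVX count was 2, beside 8751 of all 28360 probes. It was 1 with quantile normalization (7813 probes) and a percentile from detected probes only (7577). It was also 1 over probes on all 48 arrays (7279) and with no detection filter (7666 of 55681). Without OVX+CUMS replicate 5 and CUMS replicate 2 it was 1 too (7241 of 28357). It was 0 with slide as a block, as for all probes, with or without OVX+CUMS replicate 5. With the spike-in shift it was 0 as well (6100 of 28360, and 5307 of 28367 without OVX+CUMS replicate 5). The count for the tissue difference of the OVX effect was 0 of 4 members, beside 6898 of 17545 probes. It was 1 with normexp (7790 probes), quantile normalization (7854) and the percentile over detected probes (7926). With the spike-in shift it was 3, and 11468 of 17545 probes passed.

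Leaving out 1 mouse at a time gave 0 to 2 for blood OVX (changed in 13 of 24 fits), 1 to 2 for blood CUMS (2 without OVX+CUMS replicate 5), 1 to 2 for mPFC OVX (1 without control replicate 5, CUMS replicate 1 or CUMS replicate 2) and 0 to 1 for mPFC CUMS (1 without CUMS replicate 1). Ctss lost its blood OVX call in 13 of these 24 fits, and Cybb only without CUMS replicate 2. The spike-in shift moved the median of all probes from 0.04 to 0.39 for blood OVX, from -0.03 to -0.33 for blood CUMS, from 0.04 to -0.09 for mPFC OVX and from 0.01 to -0.11 for mPFC CUMS. Of called effects, signs turned for Cd68 in mPFC OVX with that shift (-0.0043) and for Cybb in blood OVX with slide as a block (-0.0948). With that block without OVX+CUMS replicate 5 they turned for Ctss (-0.0957) and Cybb (-0.22). Effects that were not called turned as well. With slide as a block and all mice these were Fcgr4 (-0.41), Lyz2 (-0.43), Cd68 (-0.16) and F13a1 (-0.70) for blood OVX, and F13a1 (-0.15) for blood CUMS. Without the 2 farthest mice, r of blood with mPFC was 0.28 for Lyz2 and -0.20 for Ctss, and without OVX+CUMS replicate 5 alone 0.32 for Lyz2. Arrays of different groups with the same replicate number had a mean correlation of -0.04 in blood and 0.06 in mPFC. For other numbers it was 0.01 and -0.01. In each tissue 7 of 24 arrays were best with their own number, so a pairing by number was neither shown nor excluded. With the replicate block the count was 1 for blood OVX (10822 of 20768 probes) and 1 for blood CUMS (9359). For mPFC OVX it was 2 (8794 of 28360).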
